A study of Mus musculus with 10 samples.

Results

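The genes of the NRF2 antioxidant response were followed in the livers of 10 mice on a high-fat diet (HFD), 5 ASK1f/f and 5 ASK1+hep. The group comprised 10 genes chosen by name, Nfe2l2, Keap1, Gclc, Gclm, Txnrd1, Srxn1, Txnip, Nqo1, Hmox1 and G6pdx, out of 54532 genes in the table, and all 10 were among the 13306 genes expressed highly enough to be compared. Mice of both groups were on a C57BL/6J background and carried, homozygously in the ROSA26 locus, a murine ASK1 cDNA behind a stop cassette flanked by loxP sites. ASK1+hep mice additionally carried Cre recombinase under the albumin promoter, which removes the cassette in hepatocytes, whereas their ASK1f/f littermates lacked Cre. HFD started at the age of 6 weeks and lasted 7 weeks, and food was withdrawn for 5 h before the livers were taken. All 10 libraries held reads of 4 Y-linked genes, and Xist did not exceed 0.0129 FPKM in any of them. Levels are given as FPKM, fragments scaled by the length of the gene and, as deposited, by a size factor of the library. Levels of different genes can thus be set side by side.

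NRF2, the product of Nfe2l2, is a transcription factor that switches on genes against oxidants and electrophiles. KEAP1 binds NRF2 and hands it to a ubiquitin ligase for breakdown, and oxidants or electrophiles that modify KEAP1 let NRF2 accumulate, enter the nucleus and, together with small MAF proteins, bind antioxidant response elements in front of its target genes. In liver the pathway is known for the supply of glutathione, the reduction of thioredoxin and the removal of reactive compounds, and reduced thioredoxin is a known binding partner and inhibitor of ASK1 itself. NRF2 is regulated largely at the level of protein, which RNA sequencing does not measure. Txnip stands apart in the group, since it encodes an inhibitor of thioredoxin and is best known as a gene induced by carbohydrate.

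RefSeq promoter windows (build GRCm38.p6, 250 bases before to 50 after an annotated start) were at hand for 8 of the 10 genes, while no window was used for Gclc and Hmox1. The core of the antioxidant response element, TGACNNNGC, was searched on both strands and lay in a window of 5 of these 8 genes. Counted by window, it lay in 5 of the 10 windows of these genes and in 12.4% of all 32851 windows. These 5 windows are printed because they hold the sequence by which NRF2 is known to reach its targets. Each is read 5′ to 3′ on the strand of its gene, and capitals mark the core, printed as its reverse complement where it lies on the other strand.
Nfe2l2, chr2:75704614-75704913, minus strand: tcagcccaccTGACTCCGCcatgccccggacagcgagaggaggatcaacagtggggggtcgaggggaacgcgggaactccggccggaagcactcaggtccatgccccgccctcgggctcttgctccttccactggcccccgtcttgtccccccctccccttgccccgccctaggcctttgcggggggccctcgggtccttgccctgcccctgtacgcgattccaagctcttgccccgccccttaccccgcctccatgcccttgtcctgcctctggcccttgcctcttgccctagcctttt
Gclm, chr3:122245307-122245606, plus strand: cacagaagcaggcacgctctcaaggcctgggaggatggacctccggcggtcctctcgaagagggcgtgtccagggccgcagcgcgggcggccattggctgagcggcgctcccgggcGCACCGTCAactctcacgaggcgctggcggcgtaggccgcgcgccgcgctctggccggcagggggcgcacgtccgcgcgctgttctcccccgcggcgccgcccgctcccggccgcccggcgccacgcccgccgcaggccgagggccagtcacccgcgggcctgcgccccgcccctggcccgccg
Srxn1, chr2:152105274-152105573, plus strand: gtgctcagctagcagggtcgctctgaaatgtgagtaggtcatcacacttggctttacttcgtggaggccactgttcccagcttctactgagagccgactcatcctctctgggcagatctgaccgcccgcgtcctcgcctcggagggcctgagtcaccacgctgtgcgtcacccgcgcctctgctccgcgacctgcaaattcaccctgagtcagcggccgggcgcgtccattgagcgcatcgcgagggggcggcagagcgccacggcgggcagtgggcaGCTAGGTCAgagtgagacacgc
Txnrd1, chr10:82858956-82859255, plus strand: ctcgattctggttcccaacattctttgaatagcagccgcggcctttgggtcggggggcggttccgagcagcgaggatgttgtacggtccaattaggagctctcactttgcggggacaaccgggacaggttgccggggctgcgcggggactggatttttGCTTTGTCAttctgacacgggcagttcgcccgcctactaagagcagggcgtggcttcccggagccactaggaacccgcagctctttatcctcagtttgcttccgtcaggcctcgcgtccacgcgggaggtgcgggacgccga
G6pdx, chrX:74428831-74429130, minus strand: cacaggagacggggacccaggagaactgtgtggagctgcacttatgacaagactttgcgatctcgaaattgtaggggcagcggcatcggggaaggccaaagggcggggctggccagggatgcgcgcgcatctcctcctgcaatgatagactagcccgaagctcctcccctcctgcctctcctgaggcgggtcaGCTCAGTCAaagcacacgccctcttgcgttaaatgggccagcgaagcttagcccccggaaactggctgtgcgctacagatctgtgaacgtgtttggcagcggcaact
Counted from the start site, the core began at -240 in Nfe2l2, at -134 in Gclm, at 29 in Srxn1, at -92 in the middle of the 3 Txnrd1 windows and at -57 in G6pdx. The related AP-1 letters TGANTCA, which can overlap the core, occurred in 7.81% of all windows and among these genes in Srxn1 alone, at -102 and -45. The exact E-box letters CACGTG occurred in 7.15% of all windows and in 0 of the 8 genes, Txnip included. Imperfect E-boxes, of which a carbohydrate response element can consist, were not searched. The 0 therefore does not show that Txnip lacks such an element. A match is a match of letters only, and binding of NRF2 was not measured here.

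Depth was 13367742 to 16163378 reads on genes per library. Map3k5, which encodes ASK1, stood at 6.74, 6.88, 5.77, 4.71 and 19.8 FPKM in ASK1f/f and at 16.4, 11.1, 7.68, 12.4 and 15.2 FPKM in ASK1+hep. Reads of the gene itself and of the ASK1 cDNA in the ROSA26 locus were not told apart. The level in the library labelled ASK1f/f 5 goes against that label, and genotype differences below follow the labels, with values given where leaving this library out turns a direction. ASK1+hep 3 also stood apart. It had the lowest quality weight of the 10 libraries (0.238, others 0.476 to 2.74), and it was the highest of all livers in 37.8% of the genes up to the median length of 4107.5 bases and in 14.9% of the longer genes. Fgf21, which encodes a hormone secreted by the liver, had a log2 difference of 2.06 (exact two-sided permutation p = 0.00794, the smallest that 5 against 5 livers allow, and adjusted p = 0.355 in limma). Its level in the library labelled ASK1f/f 5, 3.21 FPKM, went with that label. Fgf21 ran from 2.46 to 4.74 FPKM in ASK1f/f and from 7.40 to 30.1 FPKM in ASK1+hep.

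**Figure D1:**
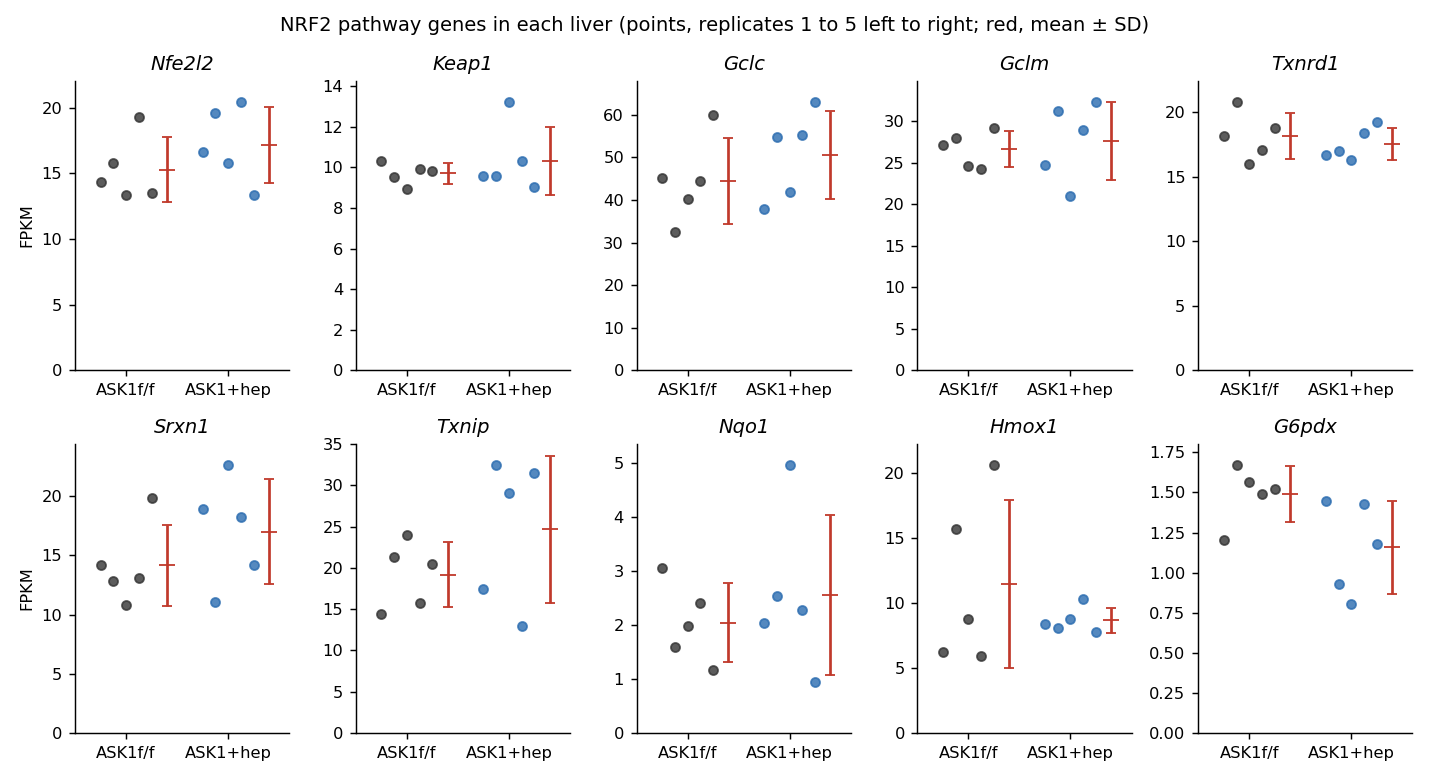
FPKM (y axis, from 0) of each gene in each liver, with ASK1f/f in grey and ASK1+hep in blue; points stand for replicates 1 to 5 from left to right, and red marks give the mean ± SD of 5 livers. The groups overlap for every gene, and Hmox1 spreads from 5.93 to 20.6 FPKM in ASK1f/f but from 7.79 to 10.3 FPKM in ASK1+hep.

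None of the 10 genes differed between ASK1+hep and ASK1f/f livers beyond the spread between mice. Of the 10 genes, 7 had a higher and 3 (Txnrd1, Hmox1 and G6pdx) a lower mean in ASK1+hep, and the differences in log2(FPKM + 1) ran from -0.22 for Hmox1 to 0.29 for Txnip. G6pdx, at -0.21 on that scale, became the lowest with limma-voom (-0.37) and on log2(FPKM + 0.1) (-0.36). The median of the 10 genes was 0.11, beside -0.0065 over all genes compared, but it was 0.06 without ASK1+hep 3, 0.07 without the library labelled ASK1f/f 5 and 0.04 with reads scaled by the library total. With that scaling 5 genes were higher and 5 lower, and the same split of 5 and 5 was found without ASK1+hep 3. The comparison asks which liver transcripts differ on HFD when ASK1 is overexpressed in hepatocytes.

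At an adjusted p of 0.05 (limma on log2(FPKM + 1), Benjamini-Hochberg), 0 of the 10 genes were called, as were 0% of all genes compared. An unadjusted p under 0.05 was reached by 0 of the 10 genes and by 768 genes in all, 5.77% of those compared, of which 3.05% were higher and 2.72% lower in ASK1+hep. The limma-voom fit on the reads behind the FPKM likewise called 0 of the 10 genes, with and without quality weights, and over all genes it called 1 with the weights and 0 without. Values of the 2 groups overlapped for each of the 10 genes, whereas they did not overlap for 115 genes, 0.864% of all compared. The missed threshold does not show that the genotypes were alike, and the 95% intervals give the differences that these livers leave possible. For Txnrd1, the narrowest, the interval ran from -0.26 to 0.17, and for Hmox1, the widest, from -0.85 to 0.41.

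**Figure D2:**
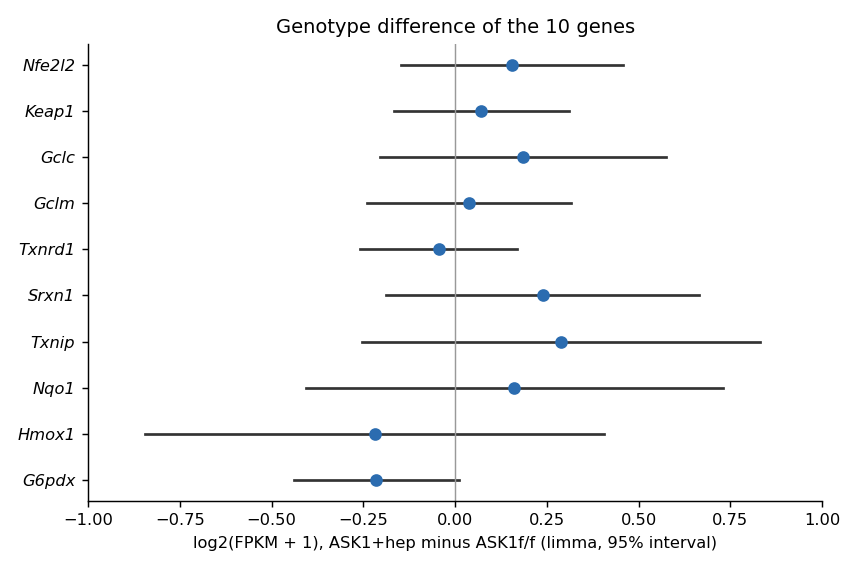
Difference in log2(FPKM + 1), ASK1+hep minus ASK1f/f (x axis), for each of the 10 genes; points are limma estimates and lines their 95% intervals over 5 and 5 livers. Every interval includes 0, and that of G6pdx, from -0.44 to 0.01, reaches it only at its upper end.

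Nfe2l2 (ENSMUSG00000015839, minus strand of chromosome 2, 75675513 to 75704641 on GRCm38), the gene of NRF2 itself, stood at 14.4, 15.8, 13.4, 19.3 and 13.5 FPKM in ASK1f/f and at 16.6, 19.6, 15.8, 20.4 and 13.3 FPKM in ASK1+hep. Levels in ASK1+hep 2 and 4 lay above every ASK1f/f liver, and the level in ASK1+hep 5 lay below them all. Means were 15.3 ± 2.46 and 17.1 ± 2.88 FPKM (SD, n = 5 each), a ratio of 1.12. It differed by 0.15 on the log2 scale (standard error 0.14, 95% interval -0.15 to 0.46, limma adjusted p = 0.821). It was 0.09 without ASK1+hep 4, 0.24 without ASK1f/f 4 or ASK1+hep 5 and 0.08 with reads scaled by the library total.

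Keap1 (ENSMUSG00000003308, minus strand of chromosome 9, 21229730 to 21239361), the inhibitor, was the steadiest of the 10 genes among ASK1f/f livers, at 10.3, 9.55, 8.93, 9.93 and 9.80 FPKM. In ASK1+hep it was at 9.58, 9.56, 13.2, 10.3 and 9.02 FPKM. A single liver, ASK1+hep 3, thus lay above the ASK1f/f range, and the other 4 lay within it. The log2 difference of 0.07 (standard error 0.11, limma adjusted p = 0.884) became -0.01 without that liver.

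The genes of glutathione synthesis were the most strongly expressed of the group. Gclc (ENSMUSG00000032350, plus strand of chromosome 9, 77754535 to 77794485) encodes the catalytic subunit of glutamate-cysteine ligase, the rate-limiting enzyme, and was at 45.2, 32.5, 40.3, 44.5 and 60.0 FPKM in ASK1f/f and at 37.9, 54.9, 42.0, 55.3 and 62.9 FPKM in ASK1+hep. Only ASK1+hep 5 exceeded the highest ASK1f/f value, which came from the library labelled ASK1f/f 5. Means were 44.5 ± 10.0 and 50.6 ± 10.3 FPKM (SD, n = 5 each). The log2 difference was 0.18 (standard error 0.18, 95% interval -0.21 to 0.57, limma adjusted p = 0.835), 0.30 without the library labelled ASK1f/f 5, 0.08 without ASK1f/f 2, 0.10 without ASK1+hep 5 and 0.11 with reads scaled by the library total.

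Gclm (ENSMUSG00000028124, plus strand of chromosome 3, 122245557 to 122270732) encodes the modifier subunit, which makes the enzyme more efficient. Its level was 27.2, 28.0, 24.6, 24.3 and 29.2 FPKM in ASK1f/f and 24.7, 31.2, 20.97, 29.0 and 32.3 FPKM in ASK1+hep. ASK1+hep 2 and 5 lay above, and ASK1+hep 3 below, every ASK1f/f liver, so that the spread was wider in ASK1+hep (SD 4.73 FPKM) than in ASK1f/f (SD 2.14 FPKM) around means of 27.6 and 26.7 FPKM. This difference in spread was not tested. On the log2 scale the difference was 0.04 (standard error 0.13, limma adjusted p = 0.957), which became -0.04 with reads scaled by the library total. Pericentral hepatocytes are known for a strong antioxidant and detoxification program. Of 7 pericentral marker genes, 6 had a higher log2 estimate in ASK1+hep, beside 48.0% of all genes compared. Their summed level was 3323 to 4534 FPKM in ASK1f/f and 4068 to 4580 FPKM in ASK1+hep. Their median log2 difference was 0.29, and 0.17 without ASK1+hep 3. Glul, glutamine synthetase, and Oat, ornithine aminotransferase, had unadjusted limma p of 0.0097 and 0.0494. Over all genes compared, 5.77% came under 0.05. The part of such markers in the values of Gclc and Gclm was not tested.

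In the thioredoxin and peroxiredoxin systems, Txnrd1 (ENSMUSG00000020250, plus strand of chromosome 10, 82833951 to 82897712), the thioredoxin reductase of the cytosol, varied least. It was at 18.2, 20.8, 16.0, 17.1 and 18.8 FPKM in ASK1f/f and at 16.7, 17.0, 16.3, 18.4 and 19.2 FPKM in ASK1+hep, and all 5 ASK1+hep livers lay within the ASK1f/f range. The highest liver was 1.30-fold above the lowest. This gave a log2 difference of -0.04 (standard error 0.10, limma adjusted p = 0.918).

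Srxn1 (ENSMUSG00000032802, plus strand of chromosome 2, 152105516 to 152111376) encodes sulfiredoxin, which repairs overoxidized peroxiredoxins. Its level was 14.2, 12.8, 10.8, 13.1 and 19.9 FPKM in ASK1f/f and 18.9, 11.1, 22.6, 18.3 and 14.2 FPKM in ASK1+hep. The library labelled ASK1f/f 5 was second to ASK1+hep 3 among the 10 livers, and 4 of the 5 ASK1+hep livers lay within the ASK1f/f range. The log2 difference of 0.24 (standard error 0.19, 95% interval -0.19 to 0.66, limma adjusted p = 0.817) was 0.36 without the library labelled ASK1f/f 5, 0.37 without ASK1+hep 2 and 0.13 without ASK1+hep 3.

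Txnip (ENSMUSG00000038393, plus strand of chromosome 3, 96557957 to 96561883) stood at 14.4, 21.3, 23.9, 15.8 and 20.5 FPKM in ASK1f/f and at 17.4, 32.4, 29.1, 13.0 and 31.5 FPKM in ASK1+hep. The ASK1+hep livers split, with replicates 2, 3 and 5 above every ASK1f/f liver and replicate 4 below every liver of the series. Means were 19.2 ± 3.97 and 24.7 ± 8.89 FPKM (SD, n = 5 each), a ratio of 1.29. The log2 difference was 0.29 (standard error 0.25, 95% interval -0.25 to 0.83, limma adjusted p = 0.819), and 0.49 without ASK1+hep 4 (unadjusted p = 0.0385, adjusted p = 0.895). It was 0.17 without ASK1+hep 2, 0.18 without ASK1+hep 5 and 0.18 with limma-voom and quality weights. The antisense gene Gm15441 overlaps Txnip at up to 2.26 FPKM, and since the sources used here do not say whether reads were counted by strand, its reads cannot be told apart from those of Txnip where the genes overlap.

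Nqo1 (ENSMUSG00000003849, minus strand of chromosome 8, 107388225 to 107403206), a quinone reductase and a standard readout of NRF2, was low in these livers. Only 20 to 106 reads per library fell on it, so counting error adds to its spread. Its level was 3.05, 1.59, 1.98, 2.41 and 1.17 FPKM in ASK1f/f and 2.04, 2.54, 4.95, 2.27 and 0.935 FPKM in ASK1+hep, a 5.30-fold range over the 10 livers and the widest of the 10 genes. ASK1+hep 3 held the highest and ASK1+hep 5 the lowest value. The log2 difference was 0.16 (standard error 0.26, limma adjusted p = 0.892) and turned to -0.05 without ASK1+hep 3.

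Hmox1 (ENSMUSG00000005413, plus strand of chromosome 8, 75093621 to 75100589) encodes heme oxygenase 1, which breaks down heme and is abundant in macrophages. It was at 6.22, 15.7, 8.78, 5.93 and 20.6 FPKM in ASK1f/f and at 8.41, 8.08, 8.75, 10.3 and 7.79 FPKM in ASK1+hep. The 5 ASK1+hep livers lay close together within the ASK1f/f range, whose upper end was set by ASK1f/f 2 and the library labelled ASK1f/f 5. Its SD was 6.45 FPKM in ASK1f/f, as against 0.975 FPKM in ASK1+hep, a difference in spread that was not tested. The log2 difference of -0.22 (standard error 0.29, 95% interval -0.85 to 0.41, limma adjusted p = 0.867) was 0.02 without the library labelled ASK1f/f 5.

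The library labelled ASK1f/f 5 also had the highest summed level of 8 markers of Kupffer cells, the resident macrophages of the liver, at 155 FPKM, and of 4 neutrophil markers, at 15.8 FPKM. Kupffer marker sums ran from 91.2 to 155 FPKM in ASK1f/f and from 57.7 to 146 FPKM in ASK1+hep, and neutrophil marker sums from 1.62 to 15.8 and from 2.20 to 8.11 FPKM. The Kupffer sum of 146 FPKM was that of ASK1+hep 1, where Hmox1 was at 8.41 FPKM. ASK1f/f 2, with Hmox1 at 15.7 FPKM, had a Kupffer sum of 110 FPKM and a neutrophil sum of 4.46 FPKM. All 8 Kupffer markers had a lower estimate in ASK1+hep, with a median log2 difference of -0.23, but 0 of 8 reached an unadjusted p under 0.05, and the median was -0.08 without ASK1+hep 2 and -0.38 without ASK1+hep 1. The lowest unadjusted limma p were those of Adgre1 (-0.54, unadjusted p = 0.0941) and Cd163 (-0.34, unadjusted p = 0.185). None of the markers of either list was at 0 in all livers. The part of these cells in the Hmox1 level was not tested, and in whole liver fewer cells of a type and less RNA per cell cannot be told apart.

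G6pdx (ENSMUSG00000031400, minus strand of chromosome X, 74409483 to 74429194) encodes the enzyme at the entry of the pentose phosphate pathway, which supplies NADPH for the reduction of glutathione and thioredoxin. It was the lowest of the 10 genes, with 34 to 81 reads per library, and had the lowest p among them. Its level was 1.21, 1.67, 1.56, 1.49 and 1.52 FPKM in ASK1f/f and 1.45, 0.929, 0.801, 1.43 and 1.18 FPKM in ASK1+hep. ASK1+hep 2, 3 and 5 lay below every ASK1f/f liver and the other 2 lay within their range. Means were 1.49 ± 0.173 and 1.16 ± 0.290 FPKM (SD, n = 5 each), a ratio of 0.776. By an exact permutation test on log2 values (two-sided) p was 0.0556. The log2 difference was -0.21 (standard error 0.10, 95% interval -0.44 to 0.01, unadjusted p = 0.0595 and adjusted p = 0.812 in limma). The neighbouring gene Ikbkg, on the opposite strand and overlapping G6pdx, was at 6.51 to 10.5 FPKM, so that reads in the overlap cannot be told apart if counting ignored strand. Ikbkg itself had a log2 difference of -0.01. G6pd2, a retrogene copy of G6pdx, did not pass the filter, with means of 0.0056 FPKM (ASK1f/f) and 0 FPKM (ASK1+hep).

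**Figure D3:**
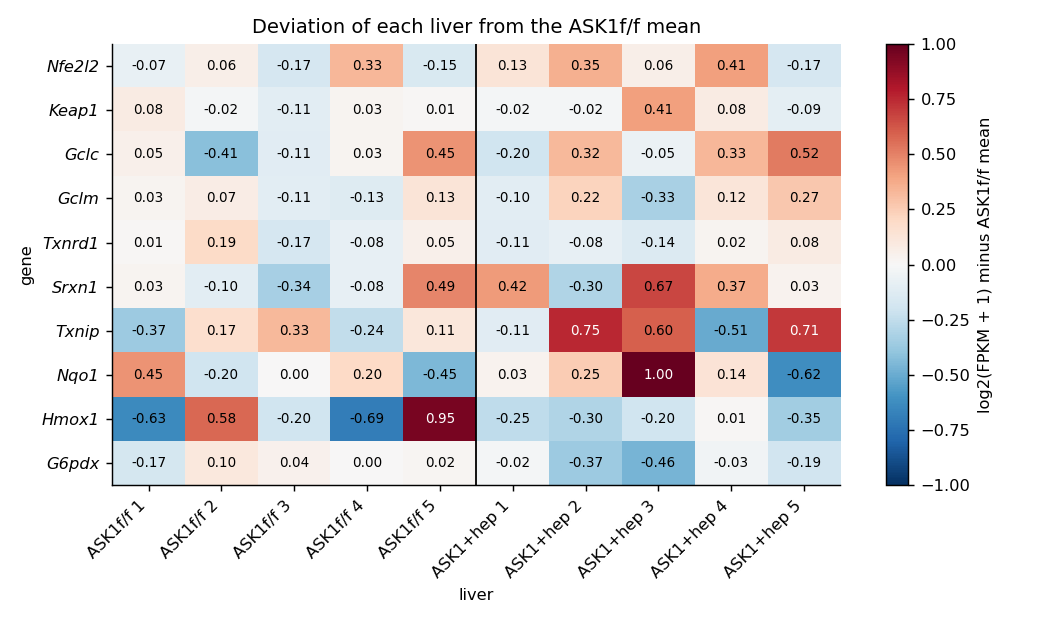
Difference of each liver (x axis) from the ASK1f/f mean in log2(FPKM + 1), by colour and printed number, for each of the 10 genes (y axis); the vertical line parts ASK1f/f from ASK1+hep. ASK1+hep 3 holds the largest positive values of Keap1 (0.41), Srxn1 (0.67) and Nqo1 (1.00) together with the lowest Gclm (-0.33) and G6pdx (-0.46).

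Levels of the 10 genes spanned more than their differences between mice. In ASK1f/f the order was Gclc, Gclm, Txnip, Txnrd1, Nfe2l2, Srxn1, Hmox1, Keap1, Nqo1 and G6pdx, from 44.5 to 1.49 FPKM. Neighbours in this order were separated without overlap of their livers only between Gclc and Gclm, between Gclm and Txnip and between Keap1 and Nqo1. ASK1+hep livers kept this order except that Keap1 (10.3 FPKM) came before Hmox1 (8.66 FPKM), and there the ranges were separate only between Gclc and Gclm and between Hmox1 and Nqo1. Gclc was expressed more strongly than 92.5% of all genes compared, G6pdx more strongly than 30.0% and Nqo1 than 42.5%.

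Spread between mice of a group also differed among the genes. The SD within groups, on the log2 scale, was larger for Hmox1 than for 95.7% of all genes compared, for Nqo1 than for 94.0% and for Txnip than for 92.7%. Gclc (78.5%) and Srxn1 (83.5%) came next, Nfe2l2 (58.9%) and Gclm (49.5%) lay near the middle, and Keap1 (30.7%) and Txnrd1 (16.5%) were steadier. G6pdx ranked at 34.6%, but log2(FPKM + 1) understates the spread of so low a gene. In FPKM its SD was 11.6% of the mean in ASK1f/f and 25.1% in ASK1+hep, beside 16.1% and 16.8% for Nfe2l2. Hmox1, Nqo1 and Txnip also had the widest intervals of the genotype difference.

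The 10 genes showed no common pattern from liver to liver. Of the 45 pairs, 19 had a positive Pearson's r over the 10 livers, and the median r was -0.02. An unadjusted permutation p under 0.05 for r was found for 3 pairs and an adjusted p at or below 0.05 for 0 of the 45, with either Pearson's r or Spearman's rho. Keap1 and Nqo1 were the closest pair (r = 0.81, permutation p = 0.00582, adjusted p = 0.262, rho = 0.72, permutation p = 0.0237, adjusted p = 0.661, n = 10). Without the 2 livers farthest from the median Keap1 level r was 0.71, and for deviations from the group means it was 0.80. Inhibitor and target each had their highest value in ASK1+hep 3 and not in the same liver as the highest Nfe2l2, which was ASK1+hep 4.

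The other pairs with a low p had a weaker r without the 2 livers farthest from the median of the first gene. Leaving these out narrows the range and can lower r by itself, so it cannot show that a pair rested on them. Keap1 and Srxn1 had r = 0.66 (permutation p = 0.0169, rho = 0.61), which was 0.24 without the 2 livers. Gclm and Nqo1 had r = -0.70 (permutation p = 0.0254, rho = -0.53), which was -0.11 without 2 livers. The 2 subunits of glutamate-cysteine ligase, Gclc and Gclm, had r = 0.62 (permutation p = 0.0546, rho = 0.67), and 0.79 without 2 livers. All pairs share the same libraries and their composition, and the 5 livers of a genotype are too few for a correlation within it.

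**Figure D4:**
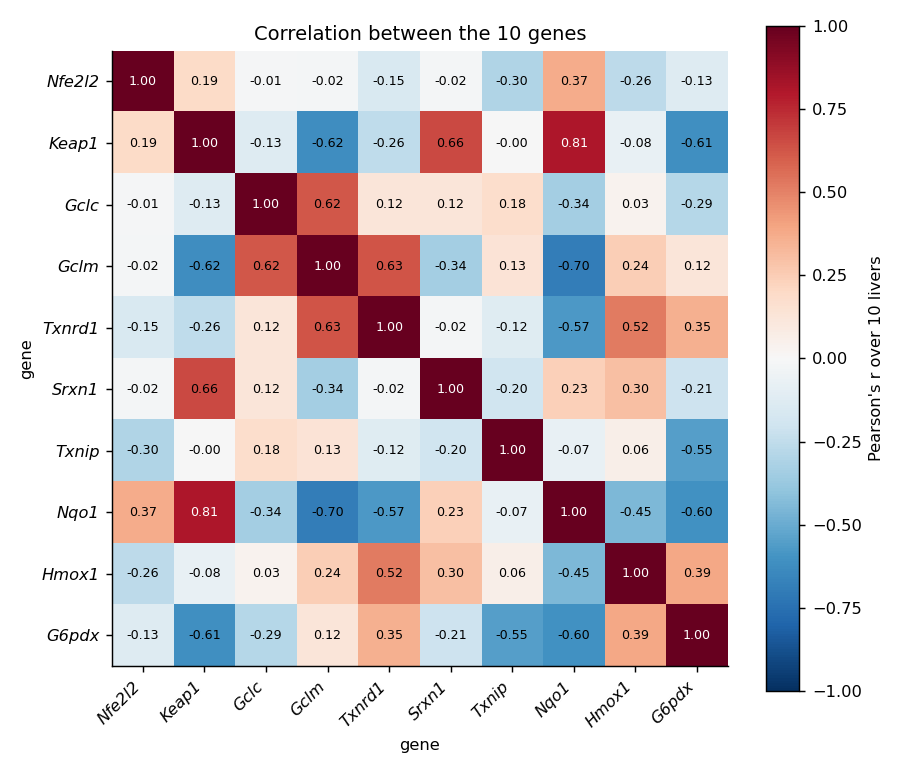
Pearson's r of log2(FPKM + 1) over the 10 livers for each pair of the 10 genes, by colour and printed number; genes are ordered by role on both axes. Keap1 and Nqo1 (0.81) form the strongest pair, and no common block is seen.

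Genes whose pattern over the 10 livers was most like that of 5 of the genes were sought among the 13296 other genes compared, and are given with r as a description. For Nqo1 these were Iffo2 and Pold4 (r = 0.97 each), which were likewise highest in ASK1+hep 3 and lowest in ASK1+hep 5. For Gclc they were Zfp938 (0.96) and Spryd7 (0.90), for Txnrd1 Mical2 (0.90) and Zbtb5 (0.90) and for Txnip Lepr (0.95) and Ano1 (0.95). Hmox1 was most like Creld2 (0.95), a gene induced by stress of the endoplasmic reticulum, which was highest in the library labelled ASK1f/f 5 as well, and Orm2 (0.94), an acute phase gene. Rank correlation was 0.77 for Creld2 and 0.87 for Orm2. These genes are the extremes of a long search over 10 livers, and no p is given for them.

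Other parts of the pathway gave few low p-values as well. Among 10 partners and controllers of NRF2, 7 had a higher and 3 a lower estimate in ASK1+hep, beside 48.0% higher over all genes. Their median log2 difference was 0.09, which was 0.05 without ASK1+hep 3, 0.06 without ASK1f/f 4 and 0.14 without the library labelled ASK1f/f 5. Maff, a small MAF protein that pairs with NRF2, was the only one of them with an unadjusted p under 0.05, beside 5.77% of all genes. Without ASK1f/f 4 or without ASK1+hep 5, 0 of the 10 came under 0.05. Maff was at 2.52 ± 0.527 FPKM in ASK1f/f, as against 3.66 ± 0.848 FPKM in ASK1+hep (SD over 5 livers). Its log2 difference was 0.40 (standard error 0.15, limma unadjusted p = 0.0212 and adjusted p = 0.812). Btrc, which directs NRF2 to breakdown independently of KEAP1, came next, with 0.11 (unadjusted p = 0.111). Sqstm1, which takes KEAP1 into autophagy, was abundant at 121 ± 25.6 and 144 ± 26.4 FPKM, with a log2 difference of 0.25 (unadjusted p = 0.174).

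Of 34 other NRF2 targets, 30 were compared, 24 of them with a higher and 6 with a lower estimate in ASK1+hep, beside 48.0% higher over all genes, and the median log2 difference was 0.13. Unadjusted p under 0.05 were found for 3 higher genes, Blvrb, Gss and Htatip2, and for 1 lower gene, Ces1g, beside 5.77% of all genes compared, and 0 passed the adjusted threshold. Leaving out 1 liver at a time, 0 to 6 higher genes were under 0.05, the 6 without ASK1+hep 5 and the 0 without ASK1+hep 4, and Ces1g always was. Over all 13306 genes, 962 higher genes were under 0.05 without ASK1+hep 5 and 341 without ASK1+hep 4, beside 406 with all livers. Ces1g, a carboxylesterase, had the lowest p (59.0 ± 16.3 against 35.8 ± 6.47 FPKM, log2 difference -0.68, limma unadjusted p = 0.0049, adjusted p = 0.804). Blvrb, a reductase of biliverdin and flavins, had 34.9 ± 5.40 and 58.7 ± 27.7 FPKM and a log2 difference of 0.64 (limma unadjusted p = 0.0287, adjusted p = 0.812). Gss, glutathione synthetase, the enzyme after glutamate-cysteine ligase, had 0.39 (limma unadjusted p = 0.0372). Slc7a11, the cystine transporter and a classical NRF2 target, did not pass the filter in these livers.

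The higher estimates of these targets depended in part on ASK1+hep 3. In that liver 18 of the 30 genes had their highest value of all 10 livers, 60.0% of the list beside 26.3% of all genes compared, and their median deviation from the ASK1f/f mean was 0.65 on the log2 scale, beside 0.30 in ASK1+hep 4 and -0.11 to 0.0029 in the other 3 ASK1+hep livers. Gstm1, a glutathione S-transferase, stood at 1388 FPKM there and at 335 to 725 FPKM in the 9 other livers. Without ASK1+hep 3, 17 of the 30 genes were higher and 13 lower, with a median log2 difference of 0.04, and 2 came under 0.05 in unadjusted p. The 10 genes of the NRF2 group had a median deviation of 0.0026 in that liver, where Keap1, Srxn1 and Nqo1 alone had their highest value. The 30 targets had a median length of 2614 bases against 4107.5 bases over all genes compared, and the part of gene length or of library composition in this liver was not tested. With reads scaled by the library total, 17 of the 30 (56.7%, beside 17.9% of all genes compared) had their highest value in that liver. Their median deviation there was 0.43. With that scaling 20 genes were higher and 10 lower between genotypes, with a median log2 difference of 0.05.

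**Figure D5:**
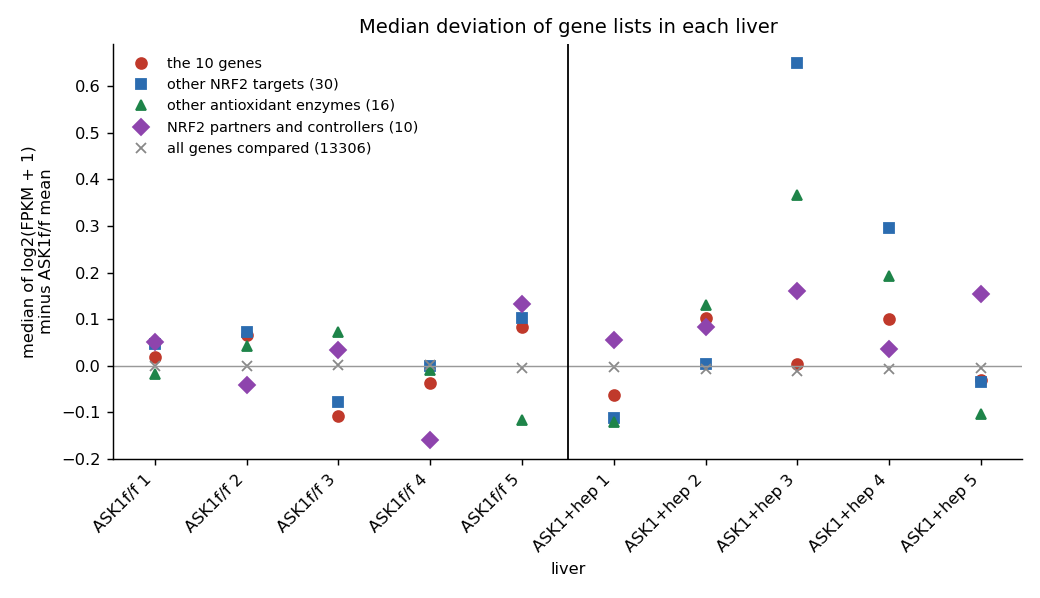
Median over each list of log2(FPKM + 1) minus the ASK1f/f mean (y axis) in each liver (x axis), with the number of genes in brackets; the vertical line parts ASK1f/f from ASK1+hep. The other NRF2 targets reach 0.65 in ASK1+hep 3 and 0.30 in ASK1+hep 4, whereas the 10 genes stay between -0.11 and 0.10 in every liver.

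Of 16 antioxidant enzymes outside the classical NRF2 targets, 15 had a higher estimate in ASK1+hep, but differences were small (median log2 difference 0.07), none of the 16 came under an unadjusted p of 0.05, and 10 of them (62.5%, beside 26.3% of all genes compared) were highest in ASK1+hep 3. With scaling by the library total 6 of the 16 were highest there (37.5%, beside 17.9% of all genes), 7 were higher between genotypes and the median was -0.01. Without ASK1+hep 3, 9 were higher, with a median of 0.0076. Selenop, the selenium carrier of plasma (-0.41, unadjusted p = 0.130), and Sod1, cytosolic superoxide dismutase (0.33, unadjusted p = 0.168), had the lowest p. In the pentose phosphate pathway, to which G6pdx belongs, 5 of 7 genes compared were higher and 2 lower, and none came under an unadjusted p of 0.05. H6pd (-0.21, unadjusted p = 0.196) and Pgls (0.29, unadjusted p = 0.300) came closest. These genes were 2 higher and 5 lower without ASK1+hep 3.

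Among 9 genes of heme breakdown and iron handling, the setting of Hmox1, 5 had a higher and 4 a lower estimate, and Blvrb had the only unadjusted p under 0.05. Blvrb was over 0.05 without ASK1f/f 3 (unadjusted p = 0.0698), without ASK1+hep 4 (unadjusted p = 0.0632) and with the replicate number as a block (unadjusted p = 0.0547). Ftl1, ferritin light chain, came next (0.39, unadjusted p = 0.253). Markers of erythroid cells, which handle heme, summed to 333 to 490 FPKM in ASK1f/f and 324 to 1053 FPKM in ASK1+hep, and their part in these values was not tested. Hmox2, the constitutive heme oxygenase, was at 18.6 ± 0.942 and 16.9 ± 3.36 FPKM. Of 7 carbohydrate response genes, the setting of Txnip, 3 were higher and 4 lower. Pklr, liver pyruvate kinase and a classical target of the carbohydrate response factor ChREBP, was at 75.5 ± 18.7 FPKM in ASK1f/f, as against 45.4 ± 7.62 FPKM in ASK1+hep, a log2 difference of -0.71 (standard error 0.17, limma unadjusted p = 0.0015, adjusted p = 0.712). Txnip had its higher mean in the group with the lower Pklr. Arrdc4, a relative of Txnip, had 0.18 (unadjusted p = 0.0965), and Mlxipl, which encodes ChREBP, had 62.2 ± 4.48 and 53.2 ± 11.1 FPKM (-0.24, unadjusted p = 0.103).

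Markers of the cells in the tissue were checked alongside. Hepatocyte markers summed to 29402 to 40680 FPKM in ASK1f/f and 34788 to 44237 FPKM in ASK1+hep, with 2 of 6 higher. Ttr (0.52, unadjusted p = 0.0472) and Cps1 (-0.72, unadjusted p = 0.101) had the lowest p. Higher log2 estimates were seen for 1 of 5 endothelial, 2 of 6 stellate cell and 1 of 4 cholangiocyte markers compared. The lowest p among them were those of Stab2 (-0.24, unadjusted p = 0.200) and Lyve1 (-0.41, unadjusted p = 0.235) for endothelium, Dcn (-0.27, unadjusted p = 0.197) and Reln (-0.17, unadjusted p = 0.220) for stellate cells, and Krt7 (-0.05, unadjusted p = 0.303) and Epcam (0.05, unadjusted p = 0.732) for cholangiocytes. Of the erythroid markers 4 of 5 were higher. Hba-a2 (1.20, unadjusted p = 0.0017) and Hbb-bt (0.64, unadjusted p = 0.0215) led them, and their near-identical copies can share reads. Neutrophil markers compared were S100a8 (-0.42, unadjusted p = 0.283) and S100a9 (0.12, unadjusted p = 0.770), and the only lymphocyte marker compared was Cd79a (0.11, unadjusted p = 0.574). Among the Y-linked genes Kdm5d (-0.11, unadjusted p = 0.296) and Eif2s3y (-0.19, unadjusted p = 0.361) had the lowest p. All p in this paragraph are unadjusted and from limma, and every adjusted p was at least 0.712.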

How the data were processed

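RNA of 10 livers was sequenced. According to the study's methods, poly-A RNA was sequenced by a service provider, reads were mapped with Hisat2 and counted with FeatureCounts, and the submitters' processing notes name fastp. The authors deposited FPKM per gene. Build and annotation are not given in the sources used here, but 98.3% of the genes found in GENCODE M21 (GRCm38) had identical coordinates. FPKM times gene length gave whole reads for 100% of values (tolerance 0.01 reads). The library size implied by the deposited FPKM was not the total of reads on genes. It was 0.890 of that total in ASK1+hep 3, the lowest, and 1.06 of it in ASK1f/f 1, the highest. A size below the total raises the FPKM of a library, and scaling by the library total removes this factor.

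A gene was compared if 5 or more livers held 10 or more reads, after scaling all libraries to the median total, and its sum was 15 or more. The test was limma 3.58.1 (R 4.3.3), run on log2(FPKM + 1) without covariates and with the trend option for variance. This scale understates differences of low genes. Single genes were also compared by exact two-sided permutation tests, and correlations used 100000 permutations. In simulated data for ASK1+hep against ASK1f/f (13306 genes), 99% of 200 genes changed by a log2 of 2 were recovered. Recovery of changes as small as those of the 10 genes, -0.22 to 0.29, was not tested. In the livers themselves Fgf21, with a log2 difference of 2.06, was not called (adjusted p = 0.355 in limma). Alternatives are given in the closing section. Beside the 10 genes, Map3k5 and Fgf21, the 2 genes with the lowest p of each list and the 2 genes most like each of 5 of them were named by rule; Gm15441, Ikbkg, G6pd2, Xist, Slc7a11, Sqstm1, Gss, Htatip2, Gstm1, Hmox2 and Mlxipl were added after their values were seen. The genes and lists were chosen with earlier results of these data known. Separate mice are the replicates.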

Additional observations from a re-analysis of the deposited data

Results flagged for a closer look

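The Map3k5 level of the library labelled ASK1f/f 5, 19.8 FPKM, lay far from the other 4 ASK1f/f livers (4.71 to 6.88 FPKM), with a gap to the nearest that was 0.856 of the range of the group, above Dixon's limit of 0.71 for 5 samples. Chance alone flags about 1 in 20 such groups, and 24 were examined (10 genes, Map3k5 and Fgf21 in 2 genotypes). The closest among the NRF2 genes was Keap1 in ASK1+hep 3, with 0.693.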

How the results depend on the processing

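Across 19 alternatives, 180 of 190 values of the 10 genes kept their direction and 10 reversed; Nfe2l2, Gclc, Srxn1, Txnip and G6pdx never reversed. Their adjusted p was never below 0.407, and the lowest unadjusted p was 0.0205 (G6pdx, only livers whose animal tags begin with CC, 4 against 4, chosen after seeing the data). Scaling by all reads gave log2 differences of -0.0013 for Keap1 and -0.0396 for Gclm, and 1 of the 10 genes (G6pdx) under an unadjusted p of 0.05, as did the livers with CC tags (1). It shifted the median of all genes to -0.05 and the share of higher genes among those with an unadjusted p under 0.05 from 52.9% to 31.4%. limma-voom with quality weights gave -0.0016 for Nqo1 and 0.0458 for Hmox1, and called 1 gene in all, Fgf21. Without a filter 1222 genes had an unadjusted p under 0.05, against 768.

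Leaving out each liver in turn gave -0.0127 to 0.11 for Keap1, -0.0216 to 0.13 for Gclm, -0.0876 to 0.0023 for Txnrd1, -0.0494 to 0.36 for Nqo1, -0.39 to 0.0175 for Hmox1 and -0.26 to -0.15 for G6pdx, with 0 to 2 of the 10 genes and 557 to 1724 genes under an unadjusted p of 0.05 and 0 to 1 past the adjusted threshold. The 1724 genes and the single call (Fgf21) came without ASK1+hep 5, and without ASK1+hep 1 there were 1178 genes. These 2 were G6pdx and Txnip, without ASK1+hep 4; G6pdx was under 0.05 also without ASK1f/f 1 or ASK1+hep 1. The cause of these changes was not tested. With the replicate block, 0 genes passed the adjusted threshold, 880 had an unadjusted p under 0.05 and 0 of the 10 did, as did 0 of 9 heme genes and, among the other targets, 2 higher and 1 lower gene. Same-numbered livers deviated together with r of 0.0212 to 0.174, not over 0.1 in every pair. The mean was 0.107, beside -0.027 for livers of different number, and 6 of 10 livers correlated best with their own number. The sources used here name no pairs, so the main fit took none, and whether the numbers mark pairs is not known. Animal tags in the library titles carry adjacent numbers for same-numbered livers of replicates 1 to 4, but not of replicate 5. With the block, the standard error was 0.14 beside 0.25 for Txnip (limma unadjusted p = 0.0814 and 0.267). For G6pdx it was 0.12 beside 0.10 (limma unadjusted p = 0.105 and 0.0595). Depth limits Nqo1 and G6pdx most, with as few as 20 and 34 reads.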
